A study of Rattus norvegicus with 65 samples.

Results

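The genes examined were 9 members of inflammatory cytokine and NF-κB signalling in the rat hypothalamus, namely Il1b, Tnf, Il6, Ccl2, Tlr4, Il1r1, Myd88, Ikbkb and Nfkbia. They were taken by gene symbol from the 38513 genes of the count table, and each symbol matched 1 gene. The genes were chosen with earlier results of these data known. All 65 libraries of the 8 groups were used, and the 2 experimental periods, batch A and batch B, were kept apart. The study set surgery and food restriction beside gut hormone treatment in obese rats and read their effect on hypothalamic RNA.

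The animals were adult male Wistar rats made obese on a high-fat diet before randomization. Roux-en-Y gastric bypass (RYGB, labelled Bypass) was performed in 14 animals (11 of batch A, 3 of batch B) and a sham operation in 11 animals (5 of batch A, 6 of batch B). The 7 body-weight-matched animals (BWM), all in batch A, were held by food restriction to the weight course of the RYGB animals. The study's abstract lists them as sham-operated too. Liraglutide, a GLP-1 receptor agonist, was injected at 0.4 mg/kg/day (5 libraries), and the gut peptide PYY3-36 was infused at 0.1 mg/kg/day (4 libraries), both in batch B only. Both agents were combined in 10 animals (5 in each batch), and 8 saline-treated animals (3 of batch A, 5 of batch B) served as their controls. The 6 animals labelled Lean, all in batch A, were taken to be the group kept on low-fat diet. The study gives that group a higher starting weight than the RYGB and sham groups. Lean vs. sham may therefore not set lean rats against obese ones. The RYGB, sham, saline and hormone-treated animals, but not the BWM animals, could choose freely between high- and low-fat diet after the intervention. All hypothalami were taken after 4 weeks and a 10 h fast. Whole hypothalamus holds many cell types, so fewer cells of a type and less RNA per cell cannot be told apart in these values.

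Tlr4 encodes a cell surface receptor for bacterial lipopolysaccharide and Il1r1 the signalling receptor for interleukin-1, and both recruit the adaptor encoded by Myd88. The signal activates the IκB kinase complex, whose catalytic β subunit is the product of Ikbkb. The kinase marks the inhibitor IκBα, the product of Nfkbia, for degradation, and the freed NF-κB dimers enter the nucleus and switch on genes such as Il1b, Tnf, Il6, Ccl2 and Nfkbia itself, which closes a feedback loop. In the brain these genes are used mainly by microglia, macrophages at the borders and vessels, endothelium and astrocytes, and hypothalamic inflammation has been studied as a companion of high-fat feeding.

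The promoter sequences of 7 of the 9 genes were found among RefSeq sequences of build GRCr8, and those of Ccl2 and Ikbkb were not found there. The 250 bases before the gene start were searched on both strands for the κB consensus, the 10-base sequence that NF-κB dimers bind. It was found in Nfkbia, Il6 and Il1r1, and in 1185 (3.54%) of the 33469 promoters searched the same way. No other motif was searched. Nfkbia, Il6 and Il1r1 are shown for their match, and Tlr4, whose RNA differed most clearly between groups, is shown for comparison. Capitals mark the κB consensus, and each sequence runs 5′ to 3′ on the strand of the gene.
Nfkbia, chr6:78597073-78597322, minus strand: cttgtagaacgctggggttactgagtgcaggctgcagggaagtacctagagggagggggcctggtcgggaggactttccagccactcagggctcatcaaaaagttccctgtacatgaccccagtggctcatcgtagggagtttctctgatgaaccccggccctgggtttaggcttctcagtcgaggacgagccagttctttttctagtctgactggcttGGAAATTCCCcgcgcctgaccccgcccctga
Il6, chr4:5894576-5894825, minus strand: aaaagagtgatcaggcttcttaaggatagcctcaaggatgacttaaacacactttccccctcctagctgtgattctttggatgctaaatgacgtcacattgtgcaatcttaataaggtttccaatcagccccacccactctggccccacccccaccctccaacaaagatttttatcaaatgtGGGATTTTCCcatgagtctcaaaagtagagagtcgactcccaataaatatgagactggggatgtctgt
Il1r1, chr9:50034133-50034382, plus strand: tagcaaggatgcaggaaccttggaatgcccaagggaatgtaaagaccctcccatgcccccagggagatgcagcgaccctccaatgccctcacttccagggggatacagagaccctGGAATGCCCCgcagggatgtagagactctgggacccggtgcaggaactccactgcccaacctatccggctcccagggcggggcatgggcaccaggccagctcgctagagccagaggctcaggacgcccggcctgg
Tlr4, chr5:85160997-85161246, plus strand: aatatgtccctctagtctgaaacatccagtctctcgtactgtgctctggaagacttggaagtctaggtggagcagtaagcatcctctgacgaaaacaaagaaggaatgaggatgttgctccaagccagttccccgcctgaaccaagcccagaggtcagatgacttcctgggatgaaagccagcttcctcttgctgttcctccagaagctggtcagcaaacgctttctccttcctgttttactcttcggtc
The match began 31 bases before the gene start in Nfkbia, 68 bases in Il6 and 135 bases in Il1r1. Il1b, Tnf, Myd88 and Tlr4 held no match, which says only that these letters are not in this window. A match describes the sequence and was not tested as a binding site.

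Total counts ran from 20040821 to 36539714 per library, with a median of 27379800. The hypothalamic neuropeptide genes Avp, Oxt and Pmch were at 0 in no library but ran down to 13.6, 1.45 and 38.4 normalized counts, against medians of 7581, 11078 and 14991, and the sum of 18 hypothalamic neuron genes ran from 3909 to 234235. The microglial genes Aif1, Itgam and Cx3cr1 were at 0 in no library. Summed normalized counts of 11 meningeal fibroblast genes, among them Col1a1, Col1a2 and Col3a1, ran from 8283 to 545588 over the libraries and are given beside the results they move with. BWM replicate 5 also carried RNA of pituitary genes, with a sum of 2082970 against a median of 156 over all libraries.

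Per kilobase of exon, the inhibitor and the kinase were the most abundant of the 9 genes. The median level over the 65 libraries, in normalized counts per kilobase, was 432 for Nfkbia and 231 for Ikbkb. It was 97.3 for Myd88, 30.6 for Il1r1, 14.2 for Tlr4 and 10.1 for Ccl2. Il1b (7.66) and Tnf (2.29) were lower still, and the median of Il6 was 0. All values are summed over the exons of a gene on its own strand.

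In build Rnor_6.0, on which the counts were made, the ligand genes lie at chr3:121876256-121882637 on the minus strand (Il1b), chr20:5189382-5192000 minus (Tnf), chr4:3043231-3047807 plus (Il6) and chr10:69412065-69413863 plus (Ccl2). The receptor genes lie at chr5:82587424-82601056 plus (Tlr4) and chr9:46962291-47038139 plus (Il1r1). Myd88 lies at chr8:128022512-128027462 minus, Ikbkb at chr16:74177233-74230809 plus and Nfkbia at chr6:76267227-76270457 minus. Ikbkb shares 974 bases with LOC108348421 on the same strand and Nfkbia 266 bases with LOC108351237 on the other strand, and both of these had a median count of 0.

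The levels of the cytokine genes rested on few reads. Median counts per library were 9 for Il1b, 8 for Ccl2 and 4 for Tnf, against 47 for Tlr4, 250 for Myd88, 266 for Il1r1, 703 for Nfkbia and 864 for Ikbkb. Il6 had at least 1 count in 28 of 65 libraries and at most 6 counts and was removed by the count minimum, which left 8 of the 9 genes to test. Tnf shared its reads with a copy on chromosome 20, LOC103694380 (chr20:4855792-4858447), where reads that match several places are divided among them, and both had the same value in 64 of 65 libraries and differed by at most 0.25 counts in the other. The level of Tnf is therefore that of 1 of 2 copies whose reads could not be told apart.

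**Figure D1:**
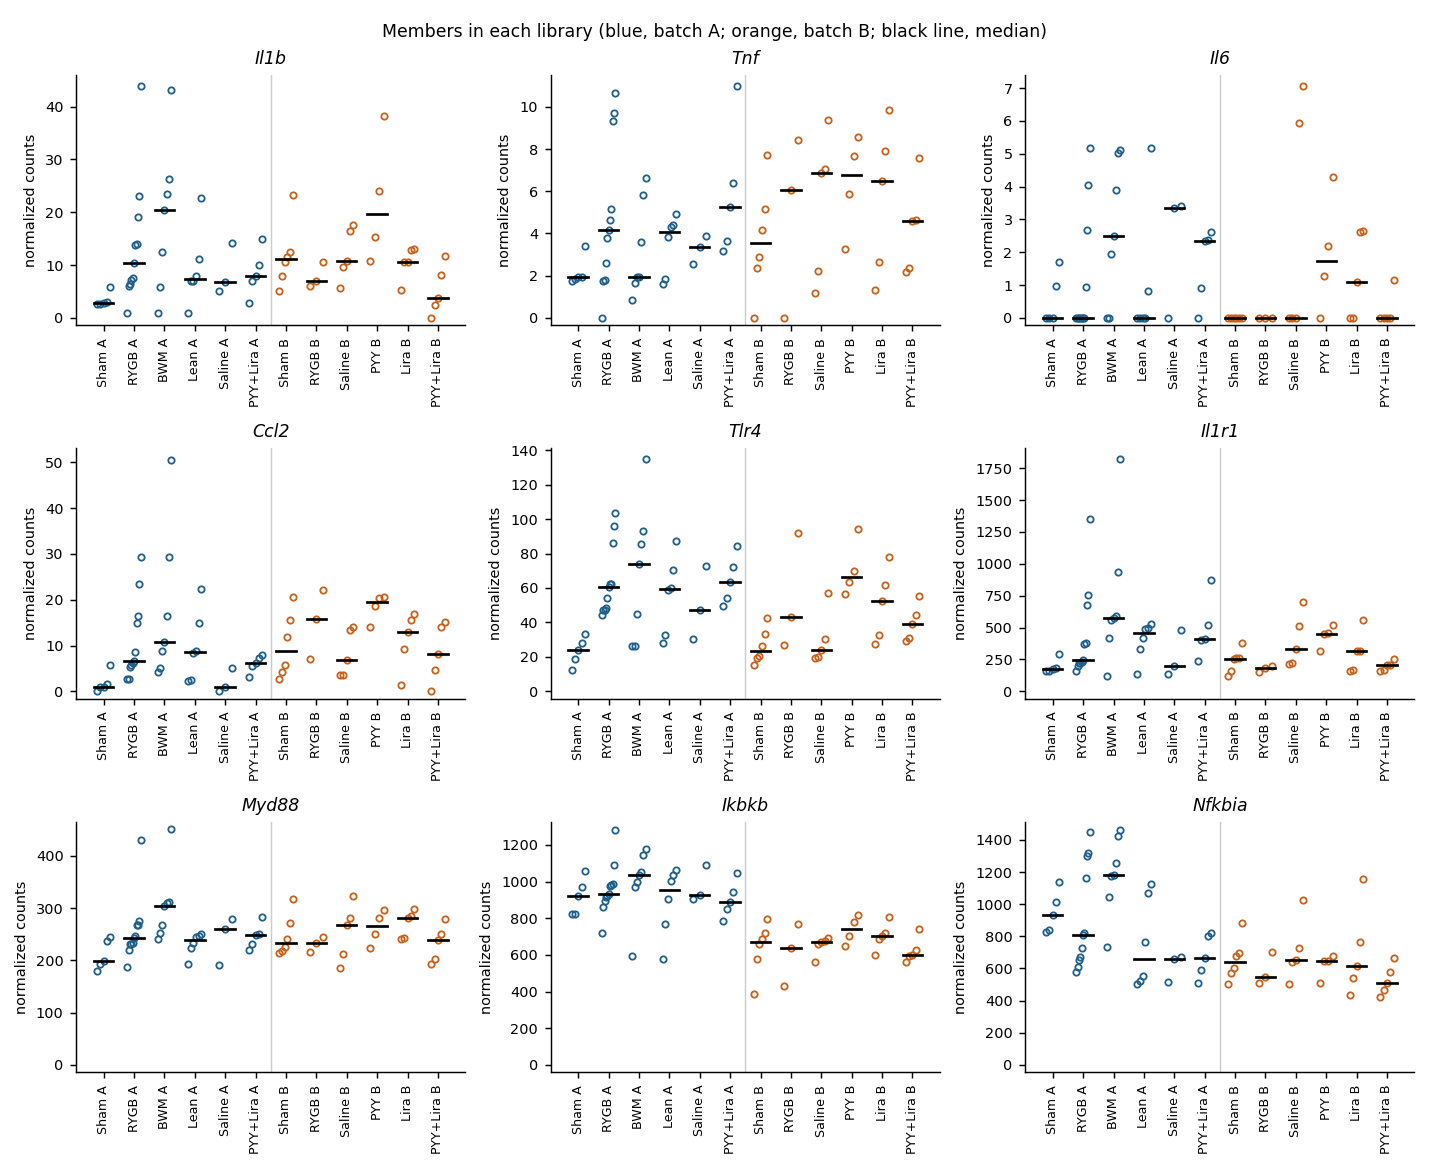
Normalized counts of the 9 genes (y axes, 1 panel a gene) in each of the 65 libraries, by group and batch (x axes); points are libraries and black lines group medians. Tlr4 of the 5 sham libraries of batch A lies between 12.6 and 33.2, below all 11 RYGB libraries of that batch, and Ikbkb is lower in batch B than in batch A.

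After RYGB, Tlr4 and Ccl2 rose vs. sham in the fit over both batches, by 1.18 ± 0.25 (SE) and 1.55 ± 0.53 on the log2 scale, and the other 6 tested genes did not pass the test (edgeR's quasi-likelihood test, Benjamini-Hochberg adjusted p = 0.0025 for Tlr4 and 0.045 for Ccl2). These were 2 of 8 genes, where 13% of all 21871 genes were called by the same rule. The median log2 fold change was 0.65 over the 8 genes and -0.02 over all genes. Within batch A, 3 of the 8 genes rose after RYGB (Ccl2, Il1b and Tlr4), where 8.64% of all genes were called. Within batch B, 0 of 8 passed edgeR's test with 3 RYGB and 6 sham libraries, where 2.74% of all genes were called. At an unadjusted p under 0.05 by edgeR were 1 of 8 (Tlr4) and 4769 of all 21871 genes. The difference of the RYGB effect between batches was not called for any of the 8 genes or of all genes (0%), and the lowest adjusted p among the 8 was 0.301 by edgeR. Unadjusted, 2 of the 8 (Il1b and Il1r1) and 2268 of all 21871 genes were at p under 0.05.

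After food restriction, Tlr4 was the only gene of the 8 that rose in the fit over both batches, by 1.25 ± 0.30, with an adjusted p of 0.039 in edgeR's quasi-likelihood test, where 0.320% of all genes were called. DESeq2 with the same terms called 3 of the 8, Ccl2, Il1r1 and Tlr4. Within batch A, the only batch with BWM animals, 5 of 8 genes rose vs. sham (Ccl2, Il1b, Il1r1, Myd88 and Tlr4) and 5.28% of all genes were called. Without BWM replicate 1, 4 of 8 passed over both batches (Ccl2, Il1r1, Myd88 and Tlr4, adjusted p = 0.026, 0.031, 0.049 and 0.0081 by edgeR), while other fits that left out 1 library called as few as 0, and the Tlr4 call was lost in 12 of 18. For DESeq2 and for fits without 1 library, the share of all genes called was not kept. Those counts cannot be set against all genes. RYGB and BWM were compared with the same sham animals. Set against each other directly, RYGB and BWM animals differed in 0 of 8 genes by edgeR and by DESeq2, and 0.343% of all genes were called by edgeR. At an unadjusted p under 0.05 by edgeR were 3 of 8 (Nfkbia, Myd88 and Il1r1, all lower after RYGB) and 2751 of all 21871 genes.

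**Figure D2:**
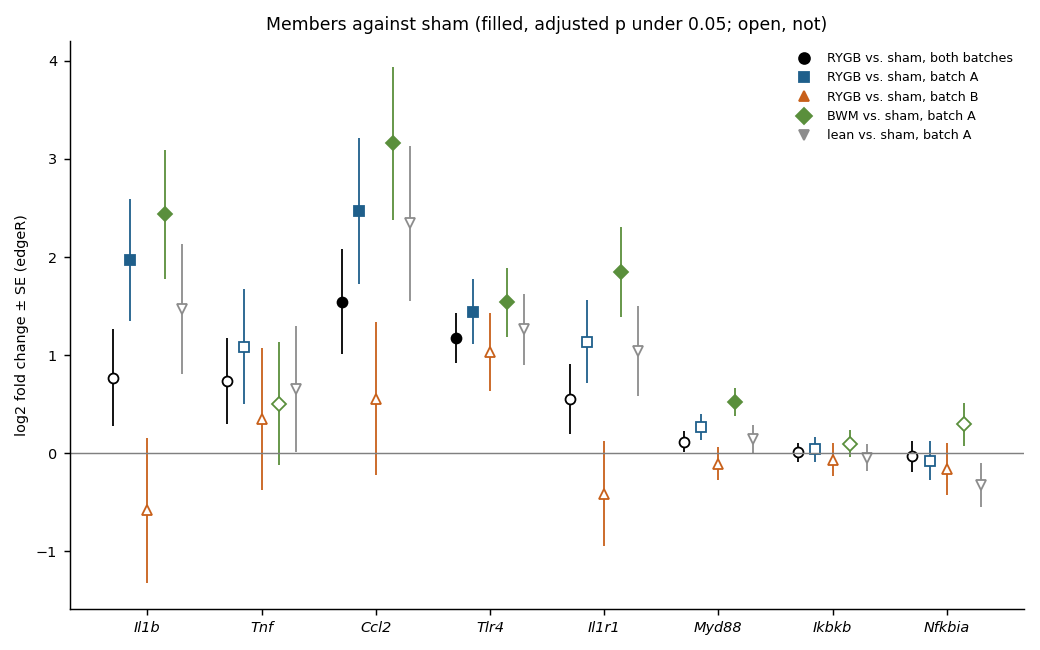
Log2 fold change vs. sham (y axis) with SE bars for the 8 tested genes (x axis): RYGB over both batches and within each batch, BWM and lean within batch A; filled symbols mark an adjusted p under 0.05. In RYGB vs. sham the batch A symbols of Il1b (1.97) and Il1r1 (1.14) lie above 0 and the batch B symbols (-0.58 and -0.41) below, and Tlr4 lies above 0 in both (1.44 and 1.03).

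Among the ligands, Il1b, which encodes interleukin-1β, had normalized counts of 2.54, 2.60, 2.80, 2.93 and 5.82 in the 5 sham libraries of batch A. In the RYGB libraries of that batch the lowest, median and highest were 0.942, 10.4 and 43.9, and in the BWM libraries 0.850, 20.5 and 43.1. Of the sham libraries of batch A, 4 lay close together and replicate 4 stood apart at 5.82. In the treated groups 10 of 11 RYGB and 5 of 7 BWM libraries lay above the highest sham library, and 1 library of each treated group lay below the lowest. Il1b rose in batch A by 1.97 ± 0.62 after RYGB and by 2.43 ± 0.65 in BWM animals on the log2 scale (edgeR's test, adjusted p = 0.037 and 0.020). In batch B the sham libraries had a median of 11.1 and the 3 RYGB libraries 6.02, 7.07 and 10.6, all within the sham range, with a log2 difference of -0.58 ± 0.74 and an adjusted p of 0.698 by edgeR. The sham libraries of batch B lay within the range of the RYGB libraries of batch A. Without RYGB replicate 3 or 9, or sham replicate 1, 2, 3 or 5, each left out alone, the batch A call of Il1b after RYGB was lost, with adjusted p between 0.055 and 0.107 in edgeR's test.

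Ccl2 encodes a chemokine that draws monocytes. Its normalized counts in the sham libraries of batch A were 0, 0.867, 0.976, 1.69 and 5.82, together 10 counts. RYGB libraries of batch A ran from 2.67 over a median of 6.52 to 29.3, and BWM libraries from 4.25 over 10.8 to 50.5. All 11 RYGB and all 7 BWM libraries were above the sham median, and 7 and 5 of them above the highest sham library. Within batch A Ccl2 rose by 2.47 ± 0.74 after RYGB and by 3.16 ± 0.78 in BWM animals (edgeR, adjusted p = 0.030 and 0.012), and the mean was 5.93 and 9.55 times that of sham. Sham replicate 4 held 6 of the 10 sham counts, and without it the log2 fold changes were 3.43 ± 0.88 and 4.12 ± 0.92. In batch B, sham libraries ran from 2.63 over a median of 8.81 to 20.6 and the RYGB libraries were at 7.02, 15.8 and 22.2, which overlaps, with a log2 difference of 0.56 ± 0.78 (edgeR, adjusted p = 0.732). The call of Ccl2 in the fit over both batches was lost in 14 of 25 fits that left out 1 library, namely RYGB replicate 2, 3, 8, 9, 12 or 14 or sham replicate 1, 2, 3, 4, 5, 6, 9 or 10, with adjusted p from 0.050 to 0.093. The batch A call after RYGB was lost without RYGB replicate 2 or 3 or sham replicate 2, 3 or 5, with adjusted p up to 0.102.

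Tnf, the gene of tumour necrosis factor, did not pass the test in any comparison between groups. In batch A its normalized counts ran from 1.73 to 3.39 in sham libraries, from 0 to 10.7 in RYGB libraries and from 0.850 to 6.63 in BWM libraries. These ranges overlap, and the log2 difference of RYGB vs. sham in batch A was 1.09 ± 0.58 (edgeR, adjusted p = 0.236). Il6, the gene of interleukin-6, had 15 counts over the 11 RYGB libraries, 21 over the 7 BWM libraries and 3 over the 5 sham libraries of batch A. In batch B it had 0 counts over the 3 RYGB and the 6 sham libraries. By counting error, 0 allows up to 3 counts over each group. A difference of Il6 between RYGB and sham within batch B was therefore not detectable at this depth.

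Tlr4 was the gene whose groups were most clearly apart. In batch A the sham libraries had normalized counts of 12.6, 18.6, 24.3, 28.0 and 33.2, and the RYGB libraries had a lowest value of 44.3, a median of 60.5 and a highest value of 103.6. No RYGB library of batch A overlapped with sham, and the mean was 2.78 times that of sham. In batch B the sham libraries ran from 15.2 over a median of 23.3 to 42.5, and the RYGB libraries were at 27.1, 43.3 and 91.9. All 3 were above the sham median and 2 above the highest sham library. The log2 fold change was 1.44 ± 0.33 in batch A (edgeR's test, adjusted p = 0.0087) and 1.03 ± 0.40 in batch B (adjusted p = 0.118), and the difference between the batches was -0.41 ± 0.52. The Tlr4 call after RYGB held in all 25 fits over both batches that left out 1 library, with adjusted p up to 0.011 by edgeR, and in all 16 such fits of batch A, up to 0.036.

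In BWM animals Tlr4 ran from 26.1 over a median of 74.0 to 135. All 7 BWM libraries were above the sham median of batch A, and 5 of 7 were above its highest library, while 2 overlapped with sham. The fold change in batch A was 1.54 ± 0.35 on the log2 scale (edgeR, adjusted p = 0.0090), and it held in all 12 fits that left out 1 library. In the fit over both batches the Tlr4 call of BWM vs. sham was lost in 12 of 18 such fits, each lacking 1 of BWM replicates 3, 4, 5 and 7 and sham replicates 1 to 6, 8 and 10, with log2 fold changes from 1.02 to 1.27 and adjusted p from 0.060 to 0.220.

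Il1r1 reached its highest levels in single RYGB and BWM libraries. The sham libraries of batch A had normalized counts of 158, 161, 176, 184 and 293. RYGB libraries of that batch ran from 164 over a median of 245 to 1353, and BWM libraries from 119 over 577 to 1822. The highest values belonged to RYGB replicate 3 and BWM replicate 7, and 5 of 11 RYGB and 6 of 7 BWM libraries were above all sham libraries. Il1r1 rose in BWM animals in batch A by 1.85 ± 0.46 (edgeR, adjusted p = 0.013), and the RYGB difference of 1.14 ± 0.42 did not pass the test (adjusted p = 0.076), except without RYGB replicate 6 (adjusted p = 0.048). In batch B the 3 RYGB libraries (155, 187 and 196) lay below the sham median of 256, within the sham range, with a log2 difference of -0.41 ± 0.54 (edgeR, adjusted p = 0.706).

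Myd88 encodes the adaptor of both receptors. Its normalized counts ran from 179 to 244 in the sham libraries of batch A, from 186 over a median of 243 to 430 in RYGB libraries and from 241 over 305 to 452 in BWM libraries. In BWM animals 6 of 7 libraries lay above all sham libraries, and Myd88 rose by 0.52 ± 0.14 on the log2 scale in batch A (edgeR, adjusted p = 0.022). After RYGB the Myd88 difference was 0.27 ± 0.13 within batch A (edgeR, adjusted p = 0.190). Within batch B it was -0.10 ± 0.17 (adjusted p = 0.772). The batch A calls of Ccl2, Il1b, Il1r1 and Myd88 in BWM animals were each lost without BWM replicate 7, with adjusted p of 0.061, 0.077, 0.073 and 0.107 and log2 fold changes of 2.66, 2.11, 1.44 and 0.42, and without sham replicate 2, with adjusted p of 0.053, 0.069, 0.051 and 0.095. Myd88 was also lost without sham replicate 1 or 3 (adjusted p = 0.051 and 0.054).

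Neither the kinase nor the inhibitor passed the test in any comparison of RYGB, BWM or lean animals with sham. The log2 fold change of Ikbkb in RYGB vs. sham was 0.01 ± 0.10 over both batches, and that of Nfkbia was -0.03 ± 0.16 (edgeR, adjusted p = 0.963 and 0.914). In batch A, Nfkbia ran from 827 to 1136 normalized counts in sham libraries, from 579 over a median of 809 to 1448 in RYGB libraries and from 736 over 1182 to 1462 in BWM libraries. The RYGB libraries lay on both sides of sham, 4 above its highest and 7 below its lowest value, with an SD of 323 against 129 in sham. In BWM animals 5 of 7 libraries were above all sham libraries and the log2 difference was 0.29 ± 0.22 (edgeR, adjusted p = 0.505). Ikbkb ran from 822 to 1060 in sham, 718 to 1282 in RYGB and 593 to 1179 in BWM libraries of batch A, and the groups overlapped.

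In lean vs. sham, 0 of 8 genes passed by edgeR and by DESeq2 with group and batch, and 2 had an unadjusted p under 0.05, Tlr4 and Ccl2. Of all genes 0% were called over both batches and 0.0686% within batch A, where again 0 of 8 passed edgeR's test and 4 were at an unadjusted p under 0.05. Among all 21871 genes, 2674 over both batches and 3350 within batch A were at an unadjusted p under 0.05 by edgeR. Tlr4 in the lean libraries ran from 28.0 over a median of 59.6 to 87.4 normalized counts, and 4 of 6 lay above all sham libraries of batch A. The log2 difference in batch A was 1.26 ± 0.36 for Tlr4 and 2.34 ± 0.79 for Ccl2 (edgeR, adjusted p = 0.096 and 0.149). Lean, BWM and RYGB libraries of batch A were all compared with the same 5 sham libraries.

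None of the 8 genes passed edgeR's test in any of the 3 hormone comparisons, which share the saline animals. In PYY3-36 vs. saline 0 of 8 passed and 0% of all genes. At an unadjusted p under 0.05 by edgeR were 1649 of all 21871 genes and 1 of the 8, Tlr4. Its 4 PYY3-36 libraries had 56.3, 63.4, 69.7 and 94.0 normalized counts, and the 5 saline libraries of batch B had 19.3, 19.997, 23.8, 30.5 and 57.2. Only the lowest PYY3-36 library overlapped with the highest saline library, and the log2 difference within batch B was 1.21 ± 0.39 with an adjusted p of 0.460 by edgeR. In liraglutide vs. saline 0 of 8 genes passed, 0 had an unadjusted p under 0.05, and 0% of all genes were called. For PYY3-36 + liraglutide vs. saline the counts were again 0 and 0, with 0.00457% of all genes called. Among all 21871 genes, 456 with liraglutide and 554 with both agents were at an unadjusted p under 0.05 by edgeR. DESeq2 called 0 of 8 in all 3 hormone comparisons. Log2 fold changes of the 8 genes ran from -0.02 to 1.35 with PYY3-36, from -0.12 to 0.63 with liraglutide and from -0.57 to 0.60 with both.

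The calls in the surgical comparisons depended on the choice of control group. In sham vs. saline 0 of 8 genes passed by edgeR and by DESeq2, and 0.0137% of all genes were called by edgeR. At an unadjusted p under 0.05 by edgeR were 2 of 8 (Tlr4 and Il1r1, both lower in sham) and 2812 of all 21871 genes. Tlr4 was -0.59 ± 0.27 on the log2 scale in sham vs. saline (edgeR, adjusted p = 0.359). Set against saline in place of sham, RYGB, BWM and lean animals each had 0 of 8 genes called by edgeR, against 0.00457%, 0.0412% and 0% of all genes. At an unadjusted p under 0.05 by edgeR were 2, 4 and 1 of 8, and 456, 1415 and 375 of all 21871 genes. The log2 difference of Tlr4 was then 0.59 ± 0.27 for RYGB and 0.66 ± 0.32 for BWM animals, and that of Ccl2 was 1.66 ± 0.59 and 2.49 ± 0.68. Against sham, Ccl2 was 1.55 and 2.38. Its unadjusted p after RYGB was 0.0070 against saline and 0.0053 against sham by edgeR's test. DESeq2 was not run on RYGB, BWM or lean vs. saline.

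**Figure D3:**
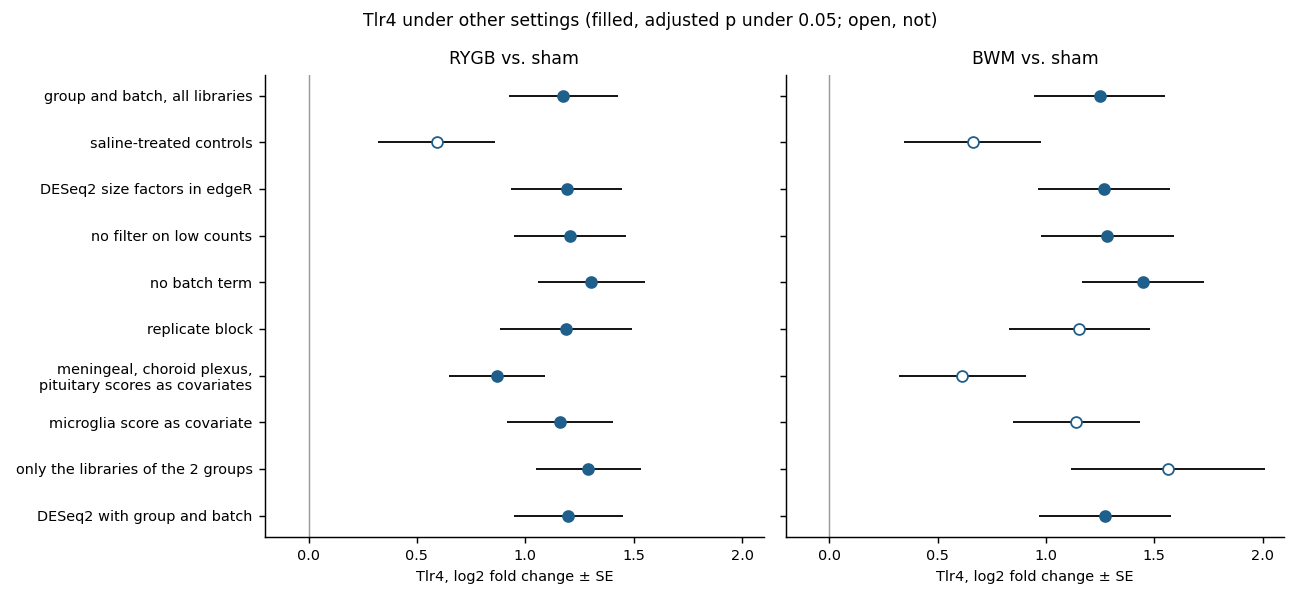
Log2 fold change of Tlr4 (x axes) with SE bars for RYGB vs. sham and BWM vs. sham under 10 settings of the fit (y axis); filled points mark an adjusted p under 0.05. With saline-treated controls the value falls to 0.59 and 0.66 and both points are open, and with meningeal, choroid plexus and pituitary scores as covariates the RYGB point (0.87) stays filled and the BWM point (0.61) is open.

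Genes of several other cell types moved with these results. In batch A the sum of the 11 meningeal fibroblast genes ran from 9118 to 18185 normalized counts in sham libraries, from 14062 to 545588 in RYGB libraries, from 8283 to 426473 in BWM libraries and from 11373 to 115947 in lean libraries. All 11 rose in RYGB and in BWM animals vs. sham within batch A, with median log2 fold changes of 3.42 and 3.52. In the fits over both batches these medians were 1.20 and 1.71. In batch B the sums were 13979 to 133502 in sham and 14507 to 18975 in RYGB libraries. Perivascular macrophage genes, among them Mrc1, Cd163 and Lyve1, followed the same order in batch A, with sums of 99.7 to 204 in sham, 257 to 1692 in RYGB and 173 to 1728 in BWM libraries, and 5 of 6 tested rose in both comparisons. Defining markers of both lists were at 0 in no library. Sums of the 16 microglia genes were 9707 to 16240 in sham, 11464 to 19750 in RYGB and 11231 to 19410 in BWM libraries of batch A, and 2 and 1 of the 15 tested rose, with median log2 fold changes of 0.09 and 0.13. Vessel genes rose as well, with 4 of 8 pericyte and smooth muscle genes in both comparisons (Acta2, Myh11, Rgs5 and Tagln) and 3 and 4 of 10 endothelial genes (Cdh5, Kdr and Vwf in both, Tek in BWM animals). Pericyte and smooth muscle sums were 3142 to 3962 in sham, 3717 to 52415 in RYGB and 3165 to 47840 in BWM libraries. Of 5 tested T cell genes 1 and 2 rose, of 9 choroid plexus genes 3 and 3, and 5 of 8 anterior pituitary genes rose in BWM animals. Pituitary sums in batch A had medians of 353 in BWM and 171 in sham libraries, and highest values of 2082970 and 12471. The highest BWM value was that of replicate 5. Within batch A, 8.64% of all genes were called after RYGB and 5.28% in BWM animals. Sums of 8 neuron genes had batch A medians of 113914 in sham, 86807 in RYGB and 89099 in BWM libraries. Those of 9 astrocyte genes were 149340, 151858 and 151250.

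The receptors and cytokines differed in how far they followed the meningeal genes. RYGB replicate 3 and BWM replicate 7, the libraries with the most Il1r1, also had the highest meningeal sums (545588 and 426473). With meningeal, choroid plexus and pituitary scores as covariates, Il1r1 went from 1.40 to -0.0013 ± 0.20 in BWM vs. sham and from 0.55 to -0.40 ± 0.16 in RYGB vs. sham (edgeR, adjusted p = 1 and 0.080). Tlr4 after RYGB was 0.87 ± 0.22 with these covariates and still passed (edgeR, adjusted p = 0.0074), Ccl2 was 0.90 ± 0.46 and did not (adjusted p = 0.188), and Il1b was 0.11 ± 0.39 (adjusted p = 0.890). In BWM vs. sham Tlr4 was 0.61 ± 0.29 and did not pass (adjusted p = 0.459). With a microglia score as covariate, Tlr4 passed after RYGB and not in BWM animals (edgeR, adjusted p = 0.0015 and 0.067). In batch B, the RYGB libraries had Tlr4 levels of 43.3, 27.1 and 91.9 normalized counts at meningeal sums of 15412, 18975 and 14507. The part of RNA from these other cell types in the batch A differences was not tested.

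**Figure D4:**
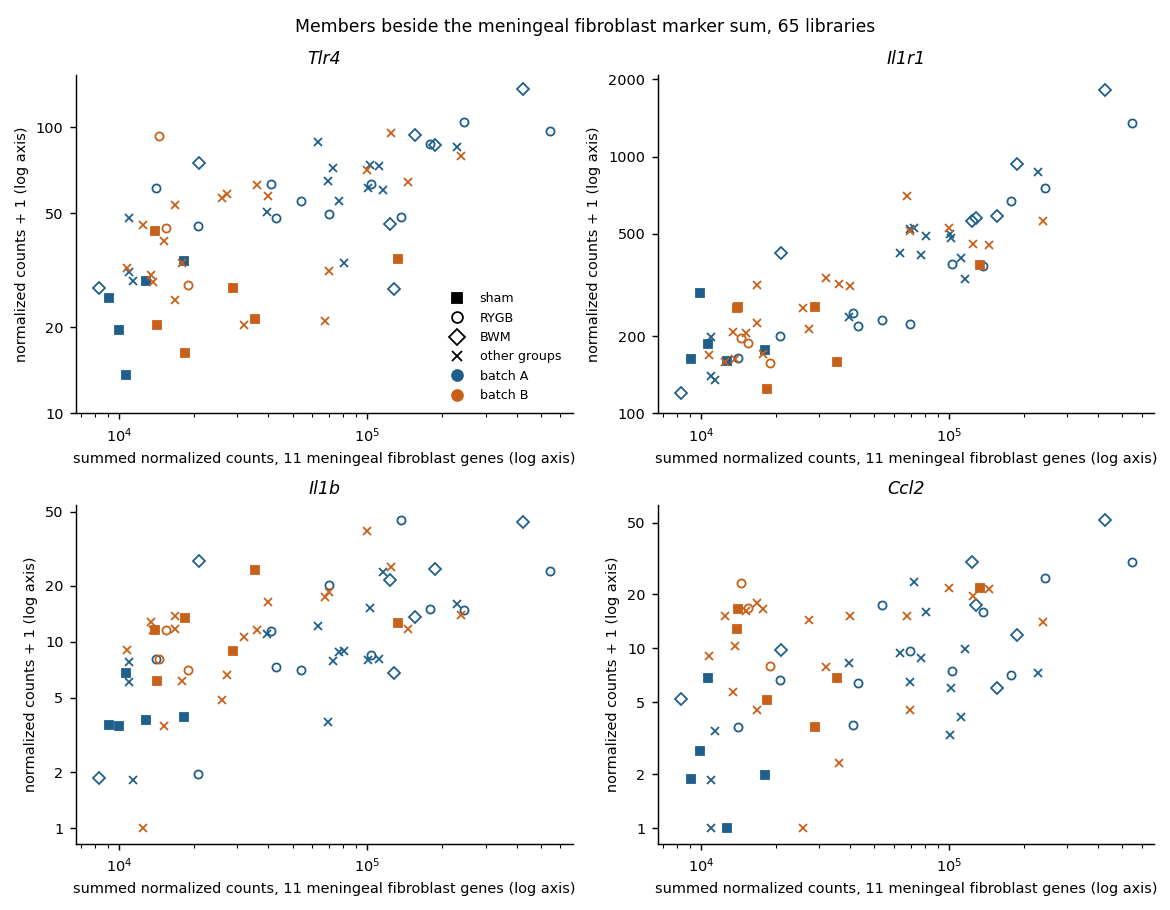
Normalized counts + 1 of Tlr4, Il1r1, Il1b and Ccl2 (y axes, log) against the summed normalized counts of 11 meningeal fibroblast genes (x axes, log) in 65 libraries; symbols mark sham, RYGB, BWM and other groups and colours the batch. The 5 sham libraries of batch A sit at the left (9118 to 18185), and Il1r1 is highest in the libraries with the largest sums.

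Batch B differed from batch A in 3 of the 8 genes, with group in the model, where 40.7% of all genes were called. Ikbkb fell by 0.56 ± 0.08 on the log2 scale and Nfkbia by 0.36 ± 0.13, and Ccl2 rose by 1.22 ± 0.41 (edgeR, adjusted p = 2.3e-08, 0.020 and 0.014). Ikbkb medians were 888 to 1038 normalized counts in the groups of batch A and 597 to 742 in those of batch B, so the medians of the batches did not overlap. Ccl2 was lowest in the saline and sham groups of batch A, with medians of 0.854 and 0.976, and highest with PYY3-36 in batch B, with 19.5.

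Across the 12 groups within batches, Tlr4 medians were highest in BWM animals (74.0), followed by PYY3-36 (66.5), PYY3-36 + liraglutide in batch A (63.8), RYGB in batch A (60.5) and lean animals (59.6). They were lowest in sham of batch A (24.3), saline of batch B (23.8) and sham of batch B (23.3). The upper 5 differed by less than the spread within each group, and so did the lower 3. Il1r1 medians ran from 176 in sham of batch A to 577 in BWM animals, with lean (456) and PYY3-36 (453) next, and neighbours in that order overlapped.

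Genes most like each member were sought over the 65 libraries, by Pearson's r of the residual log2 level after removal of the 12 means of groups within batches. These values are descriptions over libraries that share their dissection and depth. Il1r1 was most like Fndc1, Ddr2 and Dab2, each at r = 0.92. Ddr2 encodes a collagen receptor. Nfkbia was most like Dusp1 (0.80), Klf2 (0.75) and Gadd45b (0.71), which are known as rapidly induced genes. Tlr4 was most like Parp12 (0.71), LOC100359633 (0.70) and Msn (0.70), and Il1b like Tax1bp3 (0.71), Psmb8 (0.70) and Cd7 (0.69). Ccl2 was most like LOC100910973 (0.67), B2m (0.66) and Tm4sf1 (0.65), Myd88 like Emilin1, Pttg1ip and Ptpn21 (each 0.69), and Ikbkb like Sipa1 (0.70), Man2b1 (0.69) and Scamp2 (0.62). Tnf was most like its own copy (r = 1), which shares its reads, and then Krt80 (0.55) and Zic5 (0.53). Among the members themselves the highest value was 0.59, between Tlr4 and Il1r1, followed by 0.54 between Il1r1 and Myd88 and 0.52 between Il1r1 and Ccl2, and Nfkbia and Tnf were at -0.09.

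The rest of the pathway was followed in 6 lists with 131 genes, of which 123 were tested. In RYGB vs. sham over both batches 13 rose and 0 fell, or 10.6%, below the 13% of all genes, with a median log2 fold change of 0.09 against -0.02 over all genes. Of the NF-κB subunits, kinases and inhibitors 4 of 23 rose, namely Ikbkg, the regulatory subunit of the IκB kinase (0.36 ± 0.12), the NF-κB subunit gene Nfkb1 (0.31 ± 0.08), the inhibitor gene Nfkbie (0.39 ± 0.11) and Tab2 (0.34 ± 0.07), an adaptor upstream of the kinase. Of the genes of interleukin-1 and Toll-like receptor signalling 3 of 33 rose, Il1rl1, Tlr8 (2.44 ± 0.84) and the ubiquitin ligase gene Traf6 (0.91 ± 0.21). TNF signalling had 1 of 13, the receptor gene Tnfrsf1b (0.96 ± 0.26), and interleukin-6 family signalling 3 of 19, Il6st, Stat3 and the receptor gene Lifr (1.162 ± 0.29). Chemokines and their receptors had 2 of 21. The median log2 value of the 14 NF-κB target genes was -0.14, and none was among the 13. Among the genes named here, Tlr8, Lifr and Tnfrsf1b were chosen by size and the others after their values were seen.

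Within batch A 19 of the 123 pathway genes rose and 2 fell after RYGB (17.1%, against 8.64% of all genes), and 14 rose and 2 fell in BWM animals (13%, against 5.28%). The largest were the Toll-like receptor genes Tlr5 and Tlr8 and the chemokine receptor gene Ccr1, by 5.71 ± 1.53, 4.56 ± 1.18 and 2.87 ± 0.83 after RYGB and by 6.46 ± 1.55, 4.94 ± 1.22 and 3.30 ± 0.87 in BWM animals. Ackr1, a chemokine scavenger gene, fell by 0.72 ± 0.20 and 0.72 ± 0.23, and Cntfr by 0.32 ± 0.09 and 0.32 ± 0.10. Both comparisons used the same sham libraries. Within batch B 2 of 123 rose after RYGB (1.63%, against 2.74% of all genes), Nfkbie (0.72 ± 0.19) and Tab2 (0.44 ± 0.12). In BWM vs. sham over both batches 0 of 123 passed edgeR's test (0.32% of all genes), and in lean vs. sham 0 (0% of all genes). At an unadjusted p under 0.05 by edgeR were 33 and 16 of the 123, and 2695 and 2674 of all 21871 genes. Between batches 7 of the 123 were higher in batch B and 28 lower (28.5%, against 40.7% of all genes). The largest were Tlr2 (0.58 ± 0.13), Bcl2a1 (0.48 ± 0.17) and Il33 (0.29 ± 0.07) upward and Cxcl1 (-1.74 ± 0.60), Lbp (-1.38 ± 0.53) and Cebpb (-1.12 ± 0.19) downward. DESeq2 was not run on the pathway lists.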

How the data were processed

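Hypothalamic poly-A RNA of 65 rats was sequenced single-end with a stranded kit. Per the study's methods and the submitters' processing notes, reads were demultiplexed with bcl2fastq 2.20.0.422, trimmed with cutadapt, aligned with STAR 2.7.2b to Rnor_6.0 and counted per RefSeq gene and strand with featureCounts 1.6.4. The deposited values are the authors' estimated counts per gene, not normalized, in which reads with several matches or overlapping genes count in fractions, so 30.3% of values above 0 were not whole (tolerance 1e-06). Such division lowers the level of genes with a near-identical copy, as for Tnf.

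Counts were rounded and genes kept by edgeR's filterByExpr (minimum count 10, minimum total 15), which left 21871 of 38513 genes. edgeR 4.0.16 in R 4.3.3 fitted TMM-scaled quasi-likelihood models over all 65 libraries, with group and batch as terms, and a second model with 1 term for each of the 12 groups within batches. A gene was called at a Benjamini-Hochberg adjusted p under 0.05 over all genes tested. The study's further limit of an absolute log2 fold change over 1 was an alternative. Normalized counts are rounded counts divided by DESeq2 1.42.0 size factors. The scripts were tested on simulated data. Totals of 20040821 to 36539714 counts make genes of few reads imprecise. Standard errors come from the fits and include the spread between animals, while the limit given for a count of 0 covers counting error only.

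Groups and batches came from the labels, and that the batches were different periods came from the study's methods. The 9 genes and the gene lists were chosen with earlier results of these data known. Named by rule were the 9 genes and, in each comparison, up to 3 called pathway genes with the largest change in each direction. The other pathway genes named in RYGB vs. sham over both batches were chosen after their values were seen. The values of 1 pathway gene are not reported here. Within each group and batch, no 2 libraries were alike within sampling noise, and this was not checked across groups or batches. Replicate numbers run on through the batches and the labels do not tie them to shared animals or days. Correlations of same-numbered libraries ran from -0.39 to 0.34 in RYGB vs. sham and from -0.15 to 0.25 in BWM vs. sham, so the numbers were not taken as pairs. In liraglutide vs. saline all 5 exceeded 0.1 (0.32 to 0.61), though 3 of these pairs cross the batches.

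Alternatives were other controls, scaling, filter, batch and block terms, tissue scores as covariates, fewer libraries, DESeq2 and leaving out each library. The fit on batch A libraries alone and the leave-one-out fits within batch A were chosen after seeing the data. Promoter sequences are from RefSeq (GRCr8).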

Additional observations from a re-analysis of the deposited data

Results flagged for a closer look

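In groups of 4 to 10 libraries, the highest or lowest library was far from the rest of its group (Dixon's test) in 8 of 81 tests of the 9 genes, where chance gives about 1 in 20. In the sham group of batch A, Il1b was 5.82 normalized counts in replicate 4, against 2.93 in the next library. Tnf was 3.39 in replicate 1 of that group, against 1.95, and Il1r1 was 293 in the same library, against 184. Il6 was 5.17 in lean replicate 1, against 0.824, and 1.15 in replicate 8 of PYY3-36 + liraglutide in batch B, where the others were at 0. Myd88 was 452 in BWM replicate 7, against 311. Ikbkb was low in BWM replicate 1, at 593 against 971, and in saline replicate 5 of batch B, at 559 against 658. No difference of the RYGB effect between batches passed edgeR's test for any of the 8 genes tested.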

How the results depend on the processing

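Over all alternatives other than leaving out a library, 601 of 667 log2 fold changes of single genes kept their direction and side of the threshold. Most of the 667 were not called in the main fits, so they had no call to lose. Of the others, 18 lost the call, 9 gained one, 39 uncalled values changed sign and 0 called values reversed. Lost calls numbered 8 in RYGB vs. sham and 5 in BWM vs. sham. Within batch A they numbered 2 after RYGB and 3 in BWM animals. The number of the 8 genes called in RYGB vs. sham went from 2 to 0 with saline controls and to 1 without the count filter, without the batch term, with the replicate block, with meningeal, choroid plexus and pituitary scores, with only the libraries of the 2 groups, and in DESeq2 with group only and shrinkage. The number in BWM vs. sham went from 1 to 0 with saline controls, the replicate block, either set of scores as covariates or only the libraries of the 2 groups, to 3 without the batch term and in DESeq2 with group and batch, and to 4 in DESeq2 with group only and shrinkage. Lean vs. sham went from 0 to 1 without the batch term and in DESeq2 with group only. With batch A libraries alone, 1 gene was called after RYGB in place of 3 and 2 in BWM animals in place of 5. Leaving out 1 library gave 1 to 2 calls in RYGB vs. sham, 0 to 4 in BWM vs. sham, and within batch A 1 to 4 and 1 to 5. Apart from the saline controls, the share of all genes called was not kept for these settings. Those counts cannot be set against all genes, and the causes of the changes were not tested. With the replicate block, Tlr4 after RYGB was 1.19 ± 0.31 (edgeR, adjusted p = 0.020). Il1b, Ccl2 and Tnf, with median counts of 9, 8 and 4 per library, are limited by depth.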
